A study of Mus musculus with 8 samples.

Results

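The splicing factor families described here are the mouse genes whose symbols in the deposited feature list begin with Srsf, Hnrnp, Sf3a, Sf3b, U2af, Prpf, Snrnp or Tra2, without names that hold -ps or end in Rik. This rule found 65 genes among the 32286 gene features: 20 Hnrnp, 13 Prpf, 11 Srsf, 7 Snrnp, 6 Sf3b, 3 Sf3a, 3 U2af and 2 Tra2 genes, called members below. The members were chosen by name and not by any measured value. The cells came from KPC mice, a model of lung adenocarcinoma started by intratracheal infection with lentivirus, in which CRISPR activation was directed at tumour cells from tumour initiation. Dead guide RNAs (dRNA) targeted Malat1 in the group labelled mA1 and Tomato in the group labelled Con, and all mice of both groups carry the tumour model and the lentivirus. The 4 largest tumours of each group were dissected at 16 weeks, dissociated with collagenase IV and DNAse, freed of dead cells, marked with 2 hashtags carried by antibodies to CD45 and MHC class I, and run as 2 libraries per group on the 10x 3′ version 3 assay. Whether the libraries or hashtags come from different mice is not in the labels, and any p-value below then covers nothing beyond the variation among these 4 libraries.

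Splicing factors act in the removal of introns from nascent RNA by the spliceosome, and some of them, SR proteins among them, gather in nuclear speckles. SR proteins (the Srsf genes) and their relatives Tra2a and Tra2b mainly bind exonic enhancers and favour exon inclusion, whereas hnRNP proteins coat nascent RNA and often repress exons. The U2AF, SF3A and SF3B proteins recognise the 3′ splice site and the branch point, and the Prpf and Snrnp genes encode parts of the small nuclear ribonucleoproteins and of the catalytic spliceosome. Malat1 is an abundant nuclear long noncoding RNA that is retained in speckles and is known to bind SR proteins. In tumour cells, splicing factors are often altered in level or mutated, Sf3b1, U2af1 and Srsf2 being well known cases.

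Cells were assigned to classes from marker genes, with the members and Malat1 left out of the genes used for clustering. In all, 22818 cells were analysed (3674 to 7101 per library, 40609017 to 61258159 UMIs), and 16 classes had at least 20 cells in every library. The tumour-like epithelial class held 945 cells (136 to 509 per library) and expressed all 9 of its fixed markers, among them Epcam, Krt8 and Cdh1. It was named from the whole cluster, and 186 of its cells lay in 4 sub-clusters that scored highest for markers of alveolar type 2 cells, such as Sftpc. Its 10 sub-clusters were filled unequally: sub-cluster 7.1 held 167 of the Con 1 cells but 10, 13 and 12 of those of Con 2, mA1 1 and mA1 2, and sub-cluster 7.4 held 73 of the Con 2 cells but 11, 6 and 8 of Con 1, mA1 1 and mA1 2. Sub-cluster 7.0 held 15.7% and 21.5% of the cells in Con and 46.4% and 50% in mA1, so comparisons between groups set different mixtures of sub-clusters beside each other, and the part of that in the results was not tested, except for the Hnrnpa0 values given by sub-cluster below. Library Con 2 stood apart by sex-linked RNA in epithelial cells, with Xist at 1002 CPM and Ddx3y at 0. The other libraries had Xist at 0 to 0.284 CPM and Ddx3y at 27.7 to 46.5 CPM. Con 1 and Con 2 thus differed in sex-linked RNA, whereas mA1 1 and mA1 2 were alike in it. The groups were therefore not balanced for sex-linked RNA, and its part in comparisons between them was not tested. Barcodes were shared between every pair of libraries (89 to 269 per pair), and 817 analysed cells, 78 of them epithelial, had a barcode found in another library. The epithelial ones were unevenly spread. They were 8 of 509 cells in Con 1 and 37 of 149 in Con 2, and 7 of 151 in mA1 1 and 26 of 136 in mA1 2. In epithelial cells the targeted gene, Malat1, took 4.11% and 2.48% of UMIs in the libraries labelled Con and 2.38% and 4.00% in those labelled mA1. Library mA1 1 had the lowest Malat1 share of all libraries in 15 of the 16 classes, so its low value was not particular to epithelial cells. In epithelial cells the groups overlapped, and the log2 fold change of mA1 over Con was -0.04 ± 0.36 (SE, adjusted p = 0.982, edgeR's quasi-likelihood test with Benjamini-Hochberg adjustment). The groups are therefore named by their labels throughout.

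Levels were CPM, the UMI counts of a gene in a class and library over all its UMIs times 1e6, given as mean ± SD over the 4 libraries (n = 4). A 3′ library counts each captured transcript once, so these levels carry no length term. Fewer cells expressing a gene and less RNA per cell cannot be told apart in such sums.

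The members together took the largest share of UMIs in NK-like, gamma-delta T-like and B cell-like cells and in a proliferating macrophage cluster, and the smallest in plasma cell-like and neutrophil-like cells. Their summed level was 9856 ± 371 CPM in NK-like cells, 9421 ± 414 CPM in proliferating macrophage cluster 8, 9167 ± 436 CPM in gamma-delta T-like cells and 8692 ± 405 CPM in B cell-like cells. Tumour-like epithelial cells ranked 9th of 16, at 7312 and 7159 CPM in the libraries labelled Con and 6854 and 6557 CPM in those labelled mA1. Below them lay the other macrophages and monocytes (6474 to 6803 CPM), migratory dendritic cells (6198 ± 481 CPM), neutrophil-like cells (5718 ± 239.6 CPM) and plasma cell-like cells (3136 ± 844 CPM). Classes next to each other in this order overlapped over libraries, except that every neutrophil-like value lay above every plasma cell-like value. The highest class, NK-like, was 3.14 times the lowest. The upper part of the order depended on the denominator. When ribosomal protein, mitochondrial and Malat1 UMIs were left out of it, B cell-like cells were highest (15332 CPM, 4.06 times plasma cell-like cells), followed by CD4 T-like (14900 CPM) and CD8 T-like cells (14822 CPM), NK-like cells ranked 5th (13459 CPM) and cluster 8 ranked 6th (12201 CPM). Tumour-like epithelial cells ranked 9th (9918 CPM), neutrophil-like cells 15th and plasma cell-like cells 16th, as before. In plasma cell-like cells a single one of the 8 fixed markers, which include Jchain and Igha, took 130258 CPM; its part in the low member level was not tested.

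**Figure D1:**
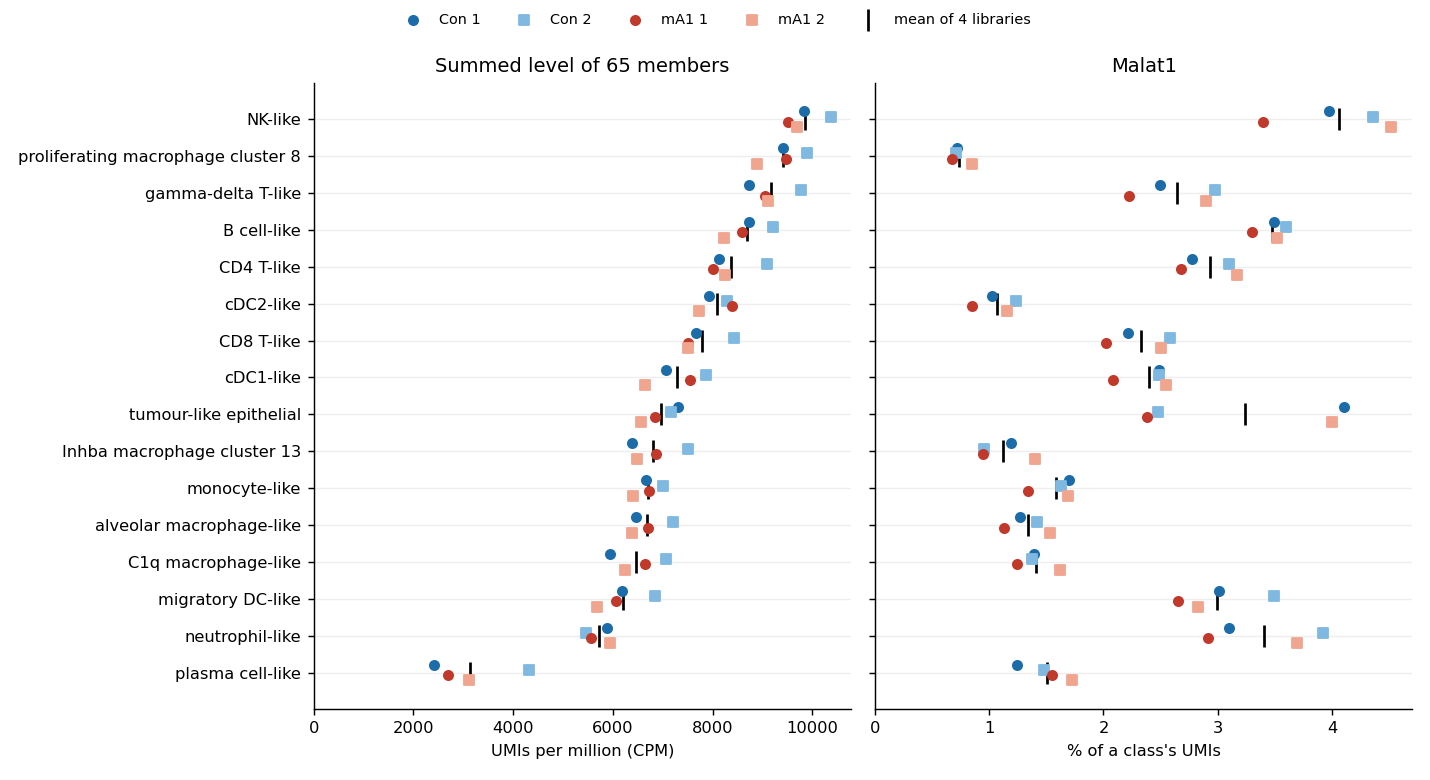
Summed level of the 65 members (left, CPM) and Malat1 (right, percent of UMIs) in each class; points are the 4 libraries and the black bar is their mean. NK-like cells are highest in both panels (9856 CPM and 4.06%), whereas cluster 8 is second for the members and lowest for Malat1 (0.739%), with all UMIs as the denominator.

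Of the 65 members, 60 had a mean over classes of at least 20 CPM and are described by class; Prpf3, Prpf4, Prpf40b, Snrnp35 and Srsf12 lay below. The median member varied 4.12-fold between its highest and lowest class, against 7.09-fold for the 5637 genes at the same level. Cluster 8, which expressed all 8 fixed proliferation markers, held the highest class mean for 20 of the 60 members, against 11.9% of all genes. B cell-like and NK-like cells held it for 11 members each (5.55% and 14.7% of genes) and tumour-like epithelial cells for 3 (14.3% of genes). Plasma cell-like cells held the lowest mean for 41 members (41.7% of genes) and neutrophil-like cells for 16 (22.6% of genes). Because classes were built from expression in the same cells, these are descriptions with no test. In all, 21 members overlap another annotated gene, Hnrnpab, Hnrnpu, Hnrnpll, Srsf9, Srsf2 and Prpf31 among them, and the sources used here do not give whether counting used strand, so their levels carry that uncertainty.

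**Figure D2:**
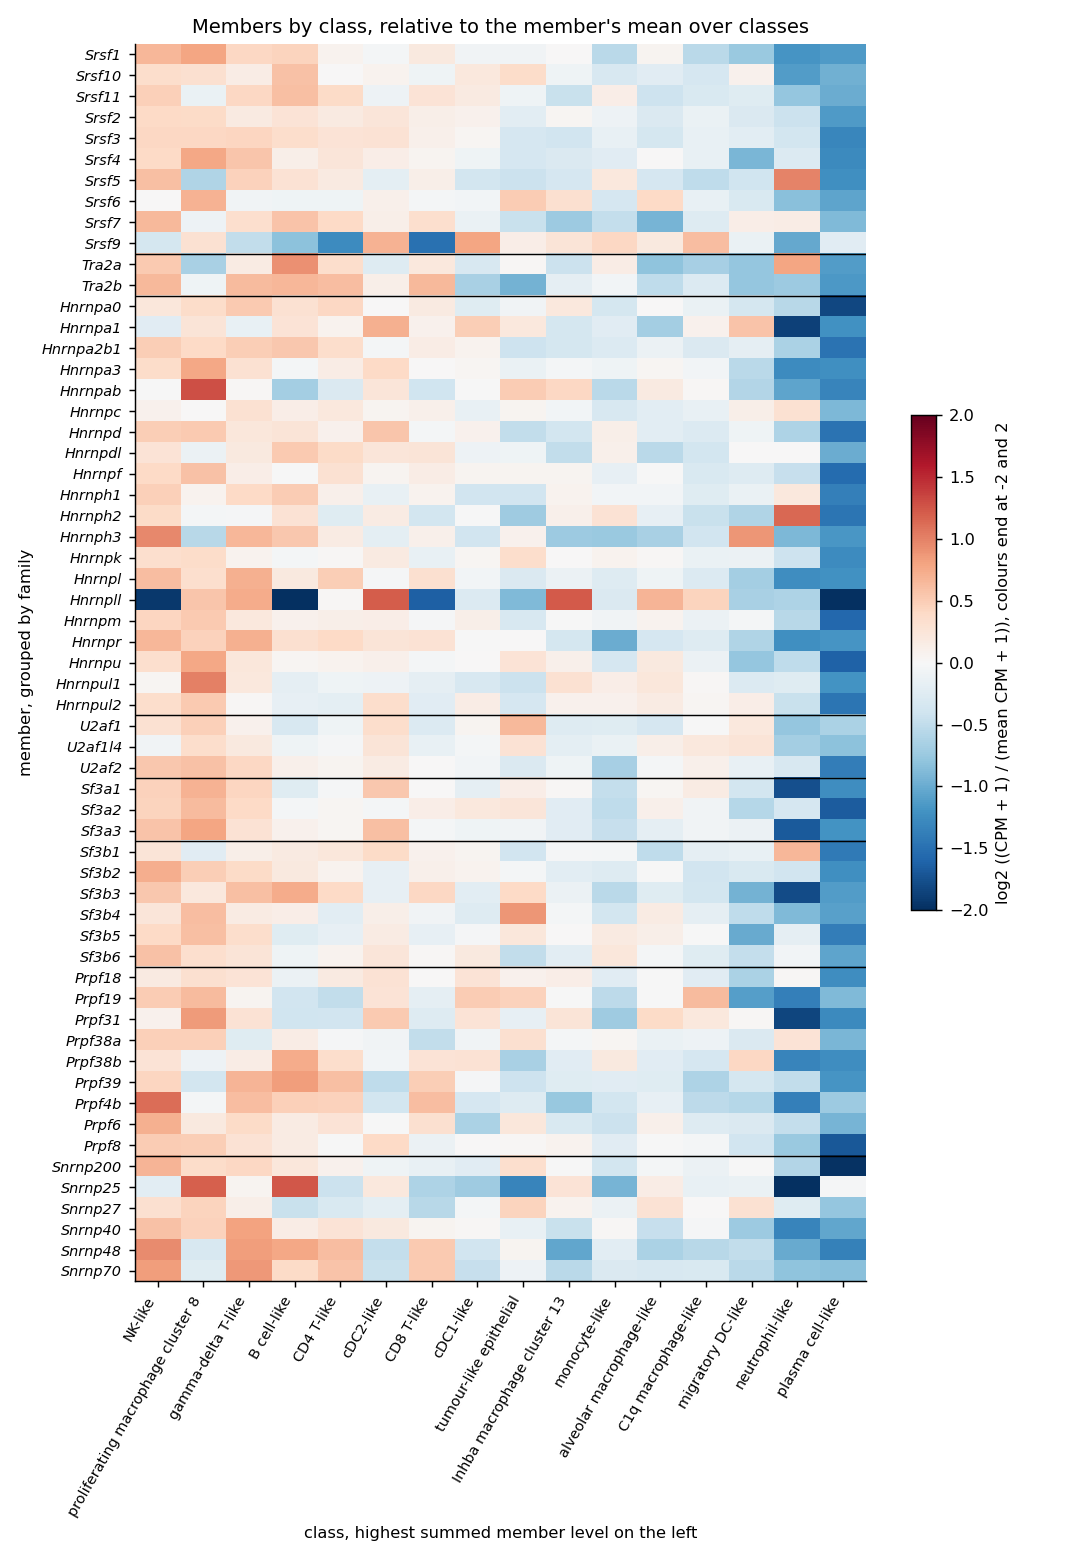
Level of members with a mean of at least 20 CPM in 16 classes as log2 of (CPM + 1) over the member's mean over classes (mean CPM + 1), grouped by family; colours end at -2 and 2. Plasma cell-like and neutrophil-like cells are blue for most members, with Hnrnph2, Srsf5, Tra2a and Sf3b1 red in neutrophil-like cells, and Hnrnpll is blue in B cell-like and NK-like cells.

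Among SR proteins, Srsf3, a short SR protein with roles in splicing and RNA export, had the most UMIs. It was at 422 and 508 CPM in the libraries labelled Con and 425 and 572 CPM in those labelled mA1 of gamma-delta T-like cells, and at 284 ± 26.4 CPM in tumour-like epithelial cells. Srsf1, a founding SR protein and known oncogene, was highest in cluster 8 (99.8 ± 8.21 CPM), overlapping NK-like cells (92.1 ± 11.96 CPM), and stood at 54.7 ± 10.1 CPM in epithelial cells. Srsf2, an SR protein mutated in myeloid neoplasms, ranged less, from 95.1 ± 24.9 CPM in plasma cell-like to 277 ± 4.32 CPM in NK-like cells. Srsf7 was highest in NK-like cells (309.7 ± 22.9 CPM) and lowest in alveolar macrophage-like cells (103 ± 4.00 CPM). Srsf5 and Srsf9 followed other orders. Srsf5 was highest in neutrophil-like cells, at 389.7 and 520.3 CPM in the libraries labelled Con and 377 and 367 CPM in those labelled mA1, against 154 ± 29.8 CPM in epithelial cells. Srsf9 was highest in cDC1-like cells, at 153 and 165 CPM in the libraries labelled Con and 151 and 144 CPM in those labelled mA1, and lowest in CD8 T-like cells, at 27.7 and 35.4 CPM in the libraries labelled Con and 37.9 and 22.04 CPM in those labelled mA1. Those cDC1-like and CD8 T-like values did not overlap in any library. The SR-like factors Tra2a and Tra2b, sequence-specific activators of exons, were both highest in B cell-like cells (343 ± 37.5 CPM and 318 ± 23.6 CPM). In tumour-like epithelial cells Tra2a ranked 8th of 16 classes (186 ± 43.7 CPM), whereas Tra2b ranked 15th (104 ± 5.96 CPM).

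The hnRNP family held both the steadiest and the most uneven members. Hnrnpc, which binds uridine tracts in nascent RNA and masks cryptic exons, varied 2.33-fold, the least of all 60 members, from 100.3 ± 37.8 CPM in plasma cell-like to 233 ± 13.7 CPM in gamma-delta T-like cells. Hnrnpa2b1, the member with the most UMIs, ranged from 178 ± 62.8 CPM to 724 ± 73.9 CPM in B cell-like cells, with tumour-like epithelial cells at 375 ± 50.96 CPM. Hnrnpll, a regulator of Cd45 exon choice in lymphocytes, varied the most. In Inhba macrophage cluster 13 it was at 99.4 and 135 CPM in the libraries labelled Con and 117 and 139 CPM in those labelled mA1, and cDC2-like cells reached 121 ± 38.7 CPM. In B cell-like cells only 3 Hnrnpll UMIs were found among 6225261, a level of 0.482 CPM (exact Poisson 95% interval 0.0994 to 1.41, counting error only). Over pooled UMIs the ratio of cluster 13 to B cell-like cells was 235, with an exact 95% counting interval from 80.3 to 1141. NK-like cells (12.9 ± 3.19 CPM) and CD8 T-like cells (16.01 ± 2.66 CPM) were also low, whereas gamma-delta T-like cells stood at 87.1 ± 13.8 CPM and CD4 T-like cells at 52.7 ± 10.4 CPM. The lymphoid classes thus differed among themselves for Hnrnpll.

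In cluster 8, 4 members lay above every value of every other class in all 4 libraries: Hnrnpab, Hnrnpa3, Hnrnpu and Hnrnpul1 (3.51% of genes did so). Hnrnpab, an RNA- and DNA-binding hnRNP, was at 407 and 438 CPM in the libraries labelled Con and 432 and 399 CPM in those labelled mA1. Tumour-like epithelial cells came next for Hnrnpab, at 243 ± 27.7 CPM, and plasma cell-like cells were lowest, at 67.6 ± 20.1 CPM. Hnrnpa3 was at 518 ± 13.2 CPM in cluster 8 and 398 ± 51.9 CPM in the next class, cDC2-like cells. Hnrnpu, also known as scaffold attachment factor A, was at 391 ± 23.5 CPM there, with epithelial cells at 277 ± 7.67 CPM. Hnrnpul1 was at 136 ± 6.04 CPM, and epithelial cells ranked 15th at 49.9 ± 6.20 CPM. In neutrophil-like cells 2 members lay above all other classes (5.96% of genes did so), Sf3b1 and Hnrnph2. Hnrnph2, which binds guanine-rich tracts, was at 143 and 184 CPM in the libraries labelled Con and 133 and 149 CPM in those labelled mA1, against 89.7 ± 14.3 CPM in NK-like cells, the next class. Hnrnpa1, a widely studied exon repressor, showed the reverse, with 44.1 ± 11.3 CPM in neutrophil-like cells and 269 ± 30.5 CPM in cDC2-like cells. Tumour-like epithelial cells held no member at this level above all other classes (5.98% of genes did so). One weakly expressed member did so, Prpf40b, at 10.5 and 9.77 CPM in the libraries labelled Con and 7.33 and 6.23 CPM in those labelled mA1, against means of at most 2.50 CPM in the other classes.

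**Figure D3:**
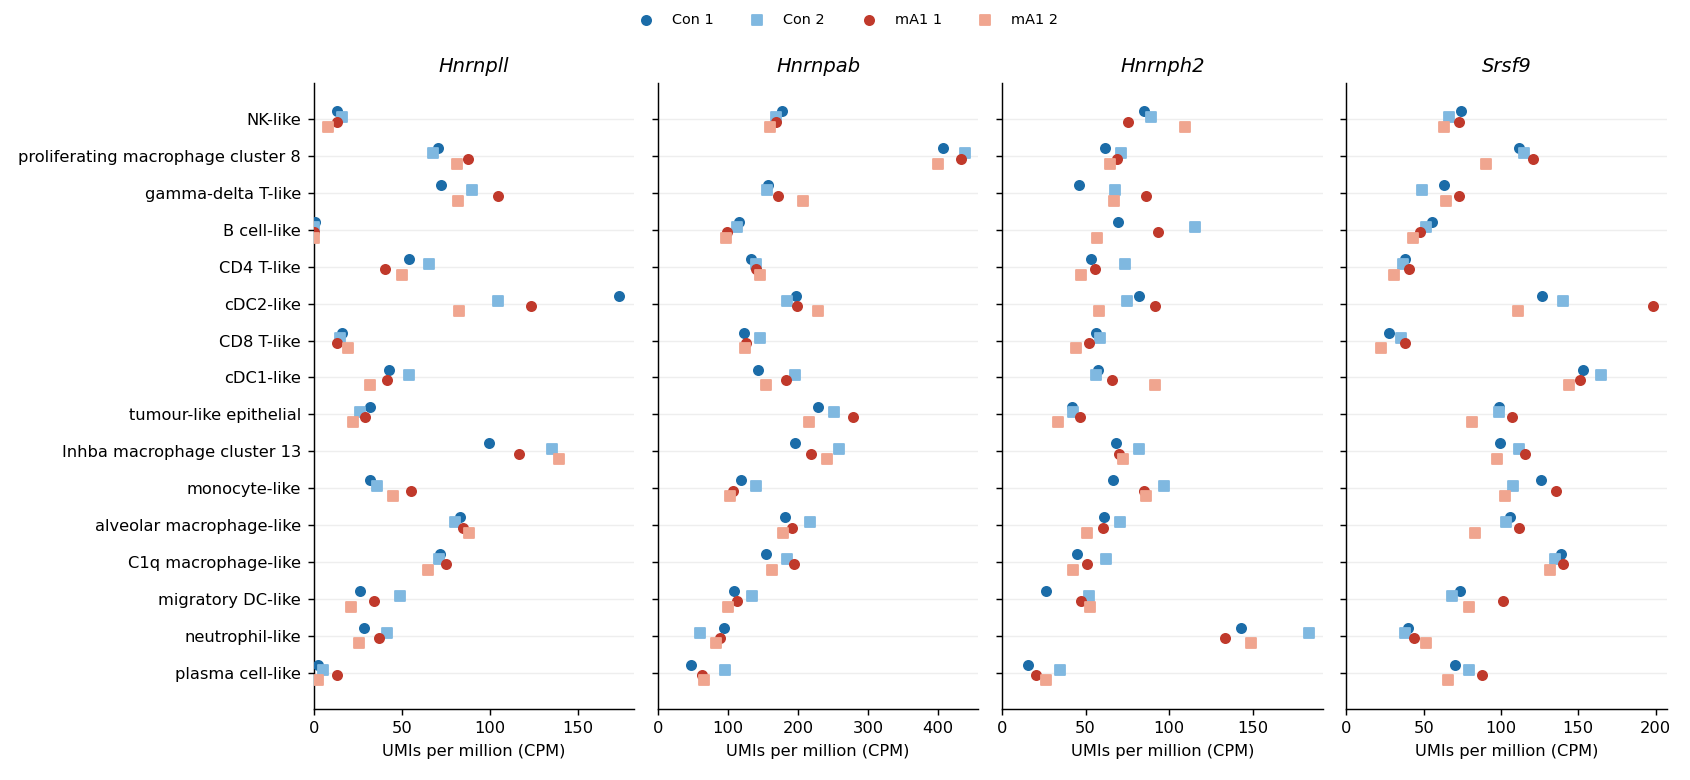
Hnrnpll, Hnrnpab, Hnrnph2 and Srsf9 (CPM) in each class, with the 4 libraries as points. Hnrnpll is near 0 in B cell-like cells, Hnrnpab is highest in cluster 8 (399 to 438 CPM), Hnrnph2 in neutrophil-like cells (133 to 184 CPM) and Srsf9 in cDC1-like cells.

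Among the proteins that recognise the 3′ splice site, U2af1, the small U2AF subunit that contacts the terminal AG of the intron, was highest in tumour-like epithelial cells. It was at 150.5 and 146 CPM in the libraries labelled Con and 133 and 184 CPM in those labelled mA1, overlapping cluster 8 (136 ± 5.11 CPM). U2af2, the large subunit that binds the polypyrimidine tract, was instead highest in cluster 8 (94.5 ± 9.21 CPM) and ranked 13th in epithelial cells (50.8 ± 3.12 CPM). U2af1l4, a relative of U2af1, varied only 2.33-fold, with epithelial cells second at 31.7 ± 4.59 CPM. In the SF3 complexes, Sf3b1, which holds the branch point and is mutated in myeloid cancers, was at 433 and 415 CPM in the libraries labelled Con and 384 and 415 CPM in those labelled mA1 of neutrophil-like cells. Epithelial cells were at 199.7 ± 11.3 CPM and plasma cell-like cells at 97.3 ± 30.7 CPM for Sf3b1. Sf3a1 and Sf3a3, subunits of the SF3A complex, were lowest where Sf3b1 was highest. Sf3a1 was at 6.62 ± 3.34 CPM in neutrophil-like cells and 40.5 ± 3.69 CPM in cluster 8, a 6.12-fold ratio, and Sf3a3 at 11.3 ± 5.42 CPM and 67.4 ± 11.1 CPM. Sf3b2 and the kinase gene Prpf4b lay above all other classes in NK-like cells (3.32% of genes did so). Sf3b2 was at 266 and 293 CPM in the libraries labelled Con and 279 and 322 CPM in those labelled mA1 there, and Prpf4b was at 308 and 303 CPM in the libraries labelled Con and 259 and 358 CPM in those labelled mA1. Sf3b4, another branch-point protein, had its highest mean in epithelial cells (61.3 ± 11.2 CPM), overlapping cluster 8 (50.9 ± 2.34 CPM).

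Among tri-snRNP and snRNP proteins, Prpf31, mutated in retinitis pigmentosa, varied 6.98-fold, from 9.44 ± 3.38 CPM in neutrophil-like to 65.9 ± 5.03 CPM in cluster 8. Prpf38b had the most UMIs of the Prpf genes and was highest in B cell-like cells (262 ± 29.4 CPM), with epithelial cells 14th, at 117 and 102 CPM in the libraries labelled Con and 85.6 and 95.8 CPM in those labelled mA1. Snrnp25, a protein of the minor spliceosome, varied 10.7-fold. It was at 67.6 and 64.1 CPM in the libraries labelled Con and 69.7 and 69.1 CPM in those labelled mA1 of B cell-like cells, near cluster 8 (65.8 ± 5.24 CPM), while tumour-like epithelial cells ranked 15th at 10.7 ± 1.16 CPM. Snrnp48, also of the minor spliceosome, followed another order, with 125 ± 4.91 CPM in NK-like and 66.7 ± 9.44 CPM in epithelial cells. Snrnp200, the helicase that unwinds the tri-snRNP, varied 6.93-fold between NK-like (59.2 ± 10.3 CPM) and plasma cell-like cells (8.55 ± 4.56 CPM). Snrnp70, the U1 snRNP protein, was highest in gamma-delta T-like cells (298 ± 30.1 CPM), and Snrnp27, a tri-snRNP protein, varied only 2.37-fold with epithelial cells (109.6 ± 20.4 CPM) and cluster 8 (109.6 ± 7.79 CPM) highest.

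Other splicing genes, from lists outside the prefix rule, were compared as sums. The 19 Sm and Lsm genes, which form the rings of snRNPs, summed to 3648 ± 160.2 CPM in cluster 8, 2731 ± 108 CPM in tumour-like epithelial cells, 998 ± 173 CPM in neutrophil-like and 1025 ± 277 CPM in plasma cell-like cells. The 8 genes of SR protein kinases and nuclear import were higher in the T and B cell classes (775 to 866 CPM) and NK-like cells (697 ± 62.4 CPM) than in epithelial cells (397 ± 21.2 CPM). The 29 other spliceosome and exon junction genes stood at 3117 ± 119.6 CPM in neutrophil-like cells and 2321 ± 18.6 CPM in epithelial cells. Neutrophil-like cells were thus near the bottom for the members and the Sm genes but not for this list.

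Promoter sequences from RefSeq (GRCm38.p6) were matched by symbol for 57 of the 65 members, as 74 entries; Hnrnpll, Hnrnpul2, Prpf18, Sf3b4, Sf3b5, Snrnp40 and U2af2 were among those with none. In the 250 bases upstream of the annotated start, 4 motifs were searched on both strands. GGGCGG (a GC box) occurred in 70.3% of member entries and 32.7% of all 32851 entries, CCAAT in 47.3% and 33.8%, CCGGAAG (an ETS-type core) in 28.4% and 6.91%, and TATAAA in 6.76% and 12.4%. None of the 4 motifs contains another, and median GC content was 60% in member entries and 52.4% in all. The windows of Hnrnpab (highest in cluster 8), Sf3b2 (highest in NK-like cells) and Hnrnpa0 (the member with the smallest p between groups, below) are shown for those patterns, and they hold no annotated gene; capitals mark the 4 motifs on either strand. Hnrnpab is chr11:51606882-51607131, Sf3b2 is chr19:5295458-5295707 and Hnrnpa0 is chr13:58128557-58128806, all on the minus strand and ending 1 base before the start.
Hnrnpab: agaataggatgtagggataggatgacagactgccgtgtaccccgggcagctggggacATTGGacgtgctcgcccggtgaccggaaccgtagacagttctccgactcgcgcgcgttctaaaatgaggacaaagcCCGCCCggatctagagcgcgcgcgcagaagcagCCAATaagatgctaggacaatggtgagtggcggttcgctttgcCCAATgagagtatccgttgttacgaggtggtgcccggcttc
Sf3b2: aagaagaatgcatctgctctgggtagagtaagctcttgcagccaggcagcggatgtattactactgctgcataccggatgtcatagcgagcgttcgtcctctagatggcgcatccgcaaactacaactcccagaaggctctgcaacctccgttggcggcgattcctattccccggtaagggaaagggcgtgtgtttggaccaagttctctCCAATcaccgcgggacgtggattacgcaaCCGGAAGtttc
Hnrnpa0: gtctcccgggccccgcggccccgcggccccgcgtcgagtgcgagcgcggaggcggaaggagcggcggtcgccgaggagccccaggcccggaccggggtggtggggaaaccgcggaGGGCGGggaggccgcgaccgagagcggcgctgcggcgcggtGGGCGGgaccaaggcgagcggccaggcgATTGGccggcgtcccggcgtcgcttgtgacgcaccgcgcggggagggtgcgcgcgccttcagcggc
The Sf3b2 window holds 1 CCGGAAG close to the start and 1 CCAAT, the Hnrnpab window 3 CCAAT and 1 GGGCGG, and the Hnrnpa0 window, with 81.2% GC, 2 GGGCGG and 1 CCAAT. A match describes letters only, not a bound site.

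Member levels were next set beside Malat1 from class to class. Malat1 ranged from 0.739% of UMIs in cluster 8 to 4.06% in NK-like cells, with tumour-like epithelial cells at 3.24 ± 0.938%. Over the 16 classes, Spearman's rho of the summed member level with Malat1 was 0.12, and 0.08 to 0.19 in the single libraries. This is a description: classes of a library share its depth and preparation, and Malat1 also went with lower median UMIs per cell (rho -0.65). The summed member level followed the share of ribosomal protein UMIs more closely (rho 0.53). Of the 60 members, 31 had a rho with Malat1 above 0, against 45.4% of genes, and the median was 0.01 for members and -0.06 for genes.

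Single members lay at both ends. Tra2a (rho 0.66), Srsf7 (0.64), Hnrnpc (0.61), Hnrnpdl (0.57) and Srsf5 (0.55) had the highest rho with Malat1. Hnrnpll (-0.68), Srsf9 (-0.60), Prpf31 (-0.56) and Hnrnpab (-0.52) were among the lowest. Tra2a was at 343 ± 37.5 CPM in B cell-like and 315 ± 26.4 CPM in neutrophil-like cells, where Malat1 took 3.48% and 3.41% of UMIs. It was at 104 ± 4.95 CPM in alveolar macrophage-like cells, where Malat1 took 1.34%. The Hnrnp family ran from -0.68 to 0.61 with a median of -0.01, and both Tra2 genes were positive.

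Within classes the relation was also described from cells, each thinned to 1000 UMIs and divided into terciles (3 groups, lower, middle and upper) by Malat1 UMIs. Cells tied at a cut went to the lower or upper tercile, so the groups need not be equal in size. In tumour-like epithelial cells the tercile with most Malat1 had more member RNA in all 4 libraries. In the libraries labelled Con, member UMIs per 1000 UMIs other than Malat1 were 6.76 in the lower and 8.64 in the upper tercile of Con 1, and 6.64 and 8.32 in Con 2. In the libraries labelled mA1 they were 6.43 and 7.93 in mA1 1, and 5.89 and 7.32 in mA1 2. Every upper tercile was above every lower tercile, and the log2 ratio was 0.32 ± 0.02 (SD, n = 4). Malat1 itself averaged 5.15 UMIs per 1000 in the lower and 78.3 in the upper terciles. Median UMIs per cell were 38511 in the lower and 32627 in the upper terciles, and mitochondrial shares were 4.01% and 3.60%. The part of either in the result was not tested. The terciles were cut over the whole class, and the share of each sub-cluster in them was not counted. The relation is thus described for the class as a mixture, not within a sub-cluster. Of 39 members with at least 40 UMIs, 13 were higher in the upper tercile in all 4 libraries and 1, Hnrnpm, was lower; 17% and 10.7% of genes were. The 13 were Hnrnpa2b1, Hnrnpd, Hnrnpdl, Hnrnpf, Hnrnpu, Hnrnpul1, Prpf38b, Sf3b1, Sf3b2, Sf3b3, Snrnp70, Srsf11 and Tra2a.

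The same direction was found in all 4 libraries of 9 other classes, among them neutrophil-like (0.45 ± 0.08), CD8 T-like (0.41 ± 0.09), B cell-like (0.34 ± 0.03), CD4 T-like (0.32 ± 0.07), gamma-delta T-like (0.30 ± 0.08) and NK-like cells (0.25 ± 0.06). It was small in alveolar macrophage-like cells (0.10 ± 0.04), and in C1q macrophage-like cells (0.08 ± 0.18) and Inhba macrophage cluster 13 (0.02 ± 0.09) the libraries lay on both sides of 0. In B cell-like cells 21 of 58 members were higher in the upper tercile in all 4 libraries, against 21.5% of genes. By member, Prpf4b was higher in the upper tercile in 10 of 10 classes with enough UMIs (median log2 ratio 0.96), Prpf38b in 12 of 12 (0.67), Snrnp70 in 11 of 11 (0.55) and Tra2a in 12 of 12 (0.53). Srsf2 was higher in 5 of 12 classes (median -0.01), U2af1 in 5 of 10 (-0.12) and Sf3b5, a small SF3B subunit, in 3 of 11 (-0.16). Members thus lay on both sides of 0.

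**Figure D4:**
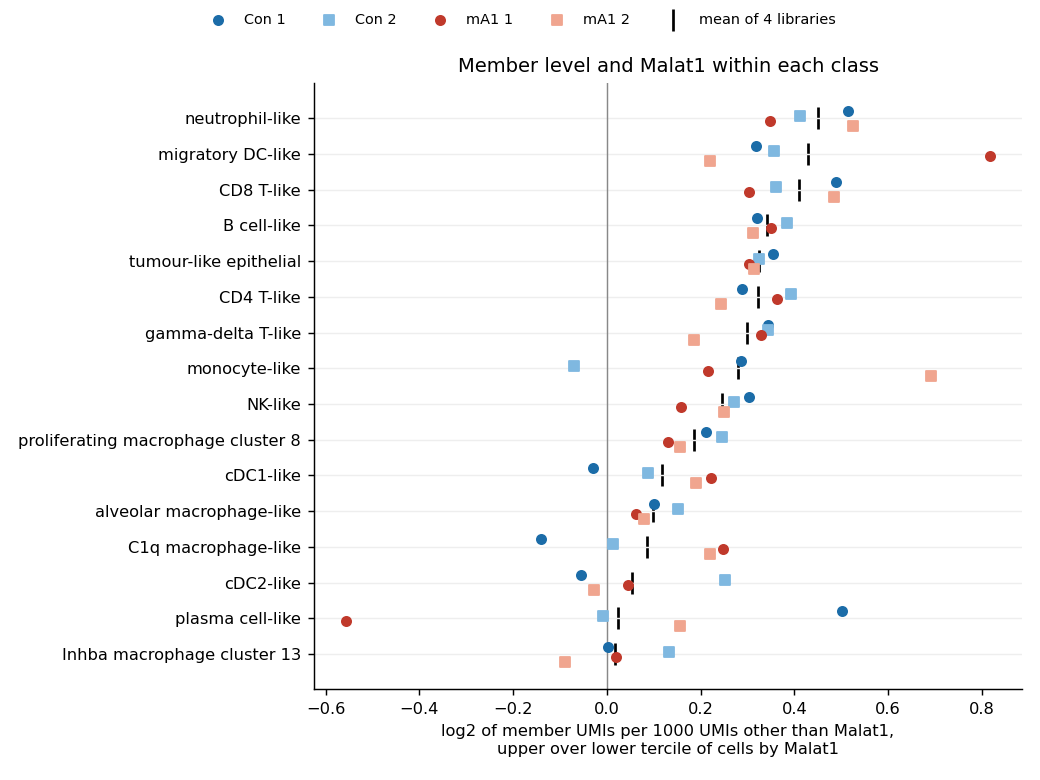
Log2 ratio, for each class, of member UMIs per 1000 UMIs other than Malat1 between the terciles of cells with most and with least Malat1; points are libraries and the black bar is their mean. Tumour-like epithelial cells lie between 0.30 and 0.35 in all 4 libraries, while plasma cell-like cells spread from -0.56 to 0.50.

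The design asks whether members differed between tumours labelled mA1 and Con. In tumour-like epithelial cells 64 members passed the filter on low counts and none was called at an adjusted p under 0.05 (edgeR's quasi-likelihood test), against 0.143% of 11906 genes. At an unadjusted p under 0.05 there were 5 members, against 9.16% of genes, and DESeq2 called 1 member, Hnrnpa0, against 0.622% of 12378 genes, with 5 members and 5.46% of genes at an unadjusted p under 0.05. The median log2 fold change was -0.05 over members (-0.07 without library Con 1) and -0.01 over all genes. Fold changes ran from -0.87 for Hnrnpa0 to 0.31 for Prpf19, 61 of the 64 were smaller than 0.5 in size, and the median SE was 0.18. Both libraries labelled mA1 lay below both labelled Con for 16 of the 64 members and above for 8, against 19.9% and 20.7% of genes.

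For several members best known for splice site choice, the fold change in tumour-like epithelial cells was smaller than its SE or near it. Srsf1 was at 58.4 and 55.3 CPM in the libraries labelled Con and 64.4 and 40.7 CPM in those labelled mA1 (log2 fold change -0.14 ± 0.21). Sf3b1 was at 199 and 187 CPM in Con and 198 and 215 CPM in mA1 (0.08 ± 0.17). For both genes the groups overlapped, as they did for Srsf2 (0.04 ± 0.16), U2af1 (0.09 ± 0.21) and U2af2 (0.09 ± 0.17). Srsf3 (-0.17 ± 0.18) and Hnrnpc (-0.13 ± 0.17) were lower in both mA1 libraries and Tra2b (0.10 ± 0.17) was higher in both, none past the test.

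Hnrnpa0, an intronless hnRNP gene whose protein binds AU-rich elements, had the smallest p. It was at 152 and 154 CPM in the libraries labelled Con and at 74.4 and 94.4 CPM in those labelled mA1, from 416 to 2144 UMIs a library. The groups did not overlap, and the log2 fold change was -0.87 ± 0.19 (SE), with an adjusted p of 0.155 by edgeR's quasi-likelihood test. Over the alternatives the adjusted p ran from 0.00131 to 0.611; it was 0.0250 in DESeq2 and 0.00131 with no filter on low counts. Without library Con 1 it was 0.00565 (log2 fold change -0.90), without Con 2 0.0189 (-0.82), without mA1 1 0.611 (-0.66) and without mA1 2 0.310 (-1.09). Leaving out cells whose barcode occurs in another library gave -0.92 (adjusted p = 0.196), and leaving out the 4 sub-clusters that scored highest for alveolar type 2 markers gave -0.85 (adjusted p = 0.245, edgeR), with 0 of 64 members called. In each of the 5 sub-clusters with at least 5 cells in every library, both mA1 libraries were below both Con libraries for Hnrnpa0. This division was added after seeing the data and is given with no test, and the share of all genes with that order was not counted. Several values rest on few UMIs. The mA1 libraries had 10 and 13 in sub-cluster 7.5, and 22 and 38, from 6 and 8 cells, in 7.4. Library Con 2 had 12 UMIs, from 5 cells, in sub-cluster 7.6. Sub-cluster 7.5 scored 5.42 for alveolar type 2 markers but -0.07 for tumour-like epithelial markers. Sub-cluster 7.6 scored 2.37 for tumour-like epithelial markers, with Ager and Hopx among its top genes. The 5 sub-clusters thus need not all be tumour cells. In sub-cluster 7.0 Hnrnpa0 was at 126 and 104 CPM in Con and 76.8 and 91.5 CPM in mA1. In sub-cluster 7.1 it was at 190 and 149 CPM in Con and 78.9 and 148 CPM in mA1, so that Con 2 and mA1 2 were nearly equal there. The next smallest p-values were those of Prpf39, a U1-associated factor (42.3 and 33.1 CPM in Con, 28.2 and 22.1 CPM in mA1, log2 fold change -0.61 ± 0.20), Snrnp27 (124 and 130.1 CPM, 88.0 and 96.9 CPM, -0.47 ± 0.17), Tra2a (248 and 185 CPM, 151 and 159 CPM, -0.49 ± 0.19), Srsf5 (166 and 188 CPM, 146 and 118 CPM, -0.45 ± 0.18) and Prpf40b (10.5 and 9.77 CPM, 7.33 and 6.23 CPM, -0.60 ± 0.27). The Tra2a value was -0.29 without library Con 1. All 5 were lower in both mA1 libraries, with adjusted p-values from 0.392 to 0.545 by edgeR's quasi-likelihood test.

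Values of other gene lists moved between the same epithelial libraries. The 10 dissociation and immediate early genes summed to 6002 and 5499 CPM in Con and to 4121 and 5264 CPM in mA1, with none at 0 and none called; for Fos the change was -1.05 ± 0.20 on the log2 scale (edgeR, adjusted p = 0.0921). Of the 12 genes listed as marks of other cells, Hbb-bs alone was called (30.4 and 24.2 CPM in Con, 1.61 and 1.71 CPM in mA1), and none was at 0. Their sums, mostly Sftpc, were 14638 and 14741 CPM in Con and 14310 and 13072 CPM in mA1. Sftpc also marks sub-clusters of the epithelial class itself, so these sums do not measure RNA from other cells. In all, 6 of the 12 were lower in mA1 without overlap (Hbb-bs, Hba-a1, Jchain, Igkc, Ccl5 and Lyz2) and 1, Cd74, was higher. The plasma cell genes Igkc (866 and 99.6 CPM in Con, 61.7 and 31.5 CPM in mA1, log2 fold change -3.39) and Jchain (169 and 13.9 CPM, 8.76 and 2.96 CPM, -4.01) were highest in library Con 1, with adjusted p-values of 0.674 and 0.690 by edgeR. The part of either list in the Hnrnpa0 values was not tested.

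Outside the tumour-like epithelial class no member was called either. In the 15 other classes, 899 tests of members gave 0 calls by edgeR (0.0211% of 113716 gene tests were called) and 0 by DESeq2; 24 of these tests had an unadjusted p under 0.05 by edgeR, 2.67% of them against 3.82% of gene tests, and 3 of 966 by DESeq2, 0.311% against 0.413%. A term for a different change in epithelial and alveolar macrophage-like cells called no member by edgeR (0.264% of 13658 genes) or DESeq2, with 3 and 2 members at an unadjusted p under 0.05 (6.68% and 4.30% of genes). For Hnrnpa0 that difference was -0.68 ± 0.23 (adjusted p = 0.413, edgeR), so its change was not shown to differ between the 2 classes.

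Hnrnpa0 was nevertheless lower by fold change in the libraries labelled mA1 in all 16 classes, from -0.13 in gamma-delta T-like to -0.87 in tumour-like epithelial cells. The mA1 values lay below both Con values in 10 classes, a count reached by 0.34% of the 2648 genes tested in every class. Hnrnpa0 was followed because of its small p in epithelial cells, which are among those classes, and all classes come from the same libraries. The share is therefore a description of a gene chosen from these data, not further support. In monocyte-like cells Hnrnpa0 was at 119 and 133 CPM in Con and 71.3 and 65.7 CPM in mA1 (log2 fold change -0.85 ± 0.28), and in CD8 T-like cells at 163 and 169.6 CPM and at 107 and 125 CPM (-0.45 ± 0.14). Library mA1 1 was the lower of the mA1 pair in 12 classes. With the 8 tumours (library and hashtag) as samples, in the 9 classes with at least 20 cells in every tumour, Hnrnpa0 was negative in 9 of 9, and the 4 mA1 tumours lay below the 4 Con tumours in 3 (B cell-like, CD8 T-like and alveolar macrophage-like). Its smallest adjusted p among them was 0.115 by edgeR, in CD8 T-like cells. These tumours hold cells of the same 4 libraries, and tumours of a library share its preparation, so they are not further replicates. The share of all genes without overlap between tumours was not counted. Epithelial cells were not compared by tumour, as only 31.4% of them carried exactly 1 hashtag.

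Hnrnph1 and Hnrnpa2b1 were the other members with a negative fold change in every class, 3 of the 44 members tested in all classes against 0.718% of genes. Hnrnph1, a guanine-tract binding hnRNP, ranged from -0.53 in NK-like cells (178 and 212 CPM in Con, 151 and 109 CPM in mA1; -0.80 without library mA1 1) to -0.05. Hnrnpa2b1 ranged from -0.37 to -0.05. No member was positive in every class (1.28% of genes were). Tra2a was lower without overlap in 10 classes and higher without overlap in 1, Inhba macrophage cluster 13. Classes of the same libraries are not independent of each other, so these counts are not replicates.

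**Figure D5:**
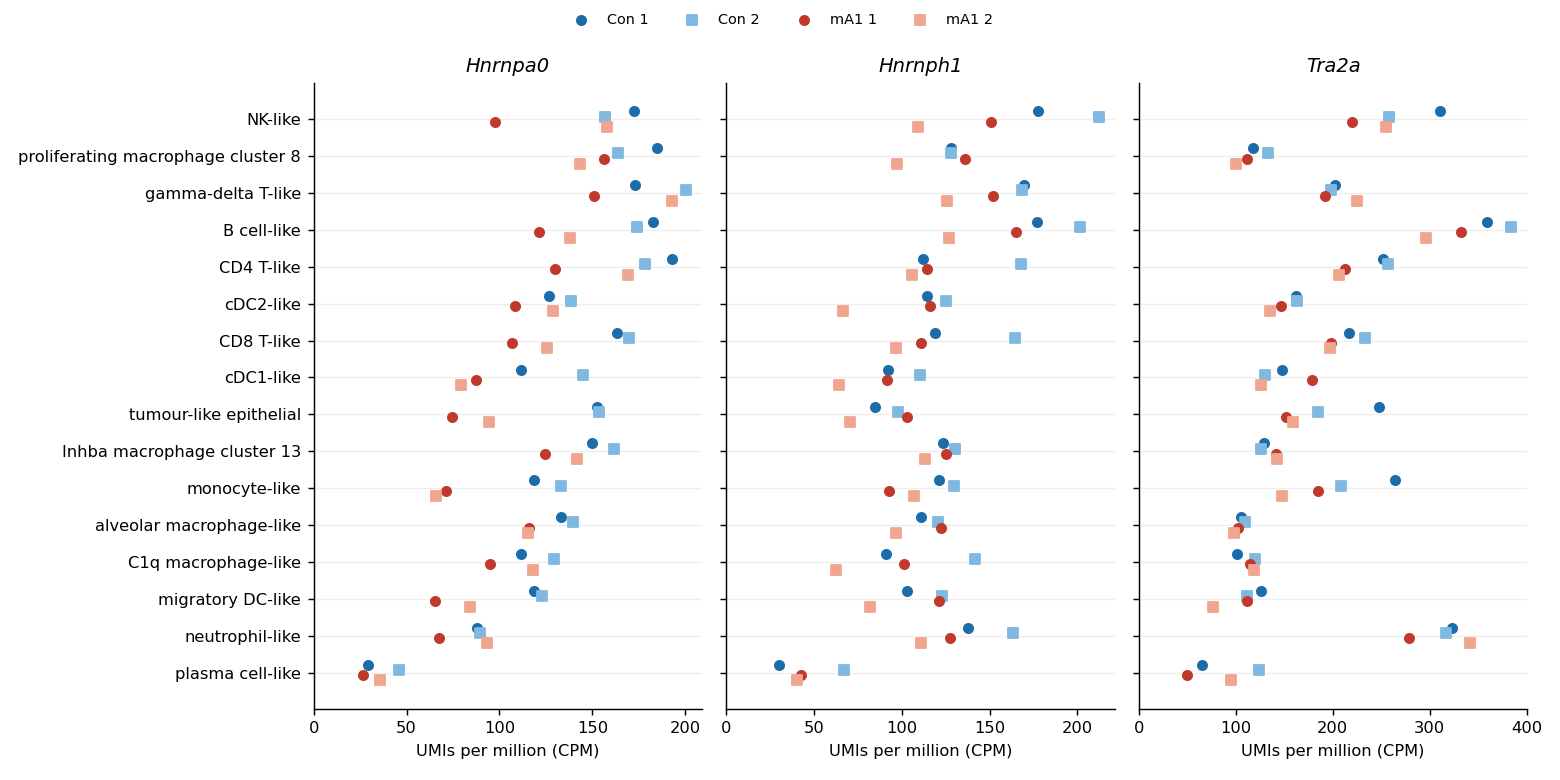
Hnrnpa0, Hnrnph1 and Tra2a (CPM) in each class, with libraries labelled Con in blue and mA1 in red. For Hnrnpa0 the red points lie left of both blue points in 10 of 16 classes, including tumour-like epithelial cells (74.4 and 94.4 against 152 and 154 CPM).

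Other members with the smallest p of a class were not called by edgeR either. Hnrnpdl, an hnRNP D relative, was higher in mA1 in gamma-delta T-like cells (72.1 and 94.1 CPM in Con, 138 and 114 CPM in mA1, log2 fold change 0.65 ± 0.21). Prpf19, the ubiquitin ligase of the catalytic spliceosome, was at 9.89 and 8.67 CPM in Con and 21.8 and 17.9 CPM in mA1 in neutrophil-like cells (1.03 ± 0.45). Srsf1 had the smallest p in C1q macrophage-like (-0.50) and CD4 T-like cells (-0.36), Sf3a2 in cDC2-like (-0.79), Hnrnph3 in cluster 8 (-0.59), Hnrnpa2b1 in cluster 13 (-0.30) and Prpf6 in plasma cell-like cells (-0.65). Single libraries moved 2 of these values: Srsf1 in CD4 T-like cells was -0.22 without Con 2, and Hnrnpa2b1 in cluster 13 was -0.16 without Con 2, -0.56 without mA1 1 and -0.11 without mA1 2. The summed member level had a lower mean in mA1 in 15 of 16 classes, with differences from -13.6% (plasma cell-like cells, where Con was 3365 ± 1357 CPM) to -0.494%, and library Con 2 was the highest of the 4 in 13 classes. The groups did not overlap in 5 classes, NK-like, B cell-like, CD8 T-like, tumour-like epithelial and migratory DC-like, each with mA1 below Con. These sums were not TMM scaled. Of genes tested, 24.3% lay below and 11.7% above without overlap in CD8 T-like cells, and 20.1% and 12.7% in B cell-like cells. The shares were 17.97% and 14.7% in NK-like, 18.5% and 14.9% in migratory DC-like, and 19.9% and 20.7% in epithelial cells. By edgeR with TMM scaling the median member log2 fold change was 0.00789 in B cell-like, -0.00539 in NK-like and -0.046 in CD8 T-like cells. It was -0.05 in epithelial and -0.14 in migratory DC-like cells. In epithelial cells the sums were 7236 ± 109 CPM in Con and 6705 ± 210.3 CPM in mA1 (n = 2 each). The lists of other splicing genes gave 0 calls by edgeR in any class, over 286 class tests of Sm and Lsm genes, 120 of SR protein kinases and import, 158 of speckle and paraspeckle proteins, 320 of other regulators and 439 of other spliceosome proteins. Of these, 4, 3, 2, 11 and 6 had an unadjusted p under 0.05, where 4.33% of all gene tests over the 16 classes did, and DESeq2 called 0 in each list.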

How the data were processed

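The authors deposited filtered UMI count matrices, 1 per library, made with Cell Ranger 6.0.1 on mm10 per the submitters' processing notes; for strand use in counting and for reads shared with processed pseudogenes, the setting is not given in the sources used here. Barcodes with at least 500 UMIs, 250 genes and at most 15% mitochondrial UMIs were kept, and 919 cells with both hashtags and 1101 cells with top Scrublet doublet scores were left out. Cells were clustered with scanpy 1.11.5 and leidenalg 0.10.2 (2000 variable genes, 30 components, 15 neighbours, resolution 1), and clusters were named from fixed markers; those that no marker list fitted stayed unnamed and were left out of the class comparisons. Deposited counts were summed per class and library, for classes with at least 20 cells in each library. Groups were compared by the quasi-likelihood test of edgeR 4.0.16 in R 4.3.3, after filterByExpr and TMM scaling. The p-values had Benjamini-Hochberg adjustment over all genes tested, with DESeq2 1.42.0 as an alternative, and the code was tested on simulated data. There, a log2 change of 1 was recovered for 37.8% of genes in tumour-like epithelial cells, and a change of 2 for 72.9%. For a change of 1 the share was 71.1% in alveolar macrophage-like and 63.9% in B cell-like cells. Lack of a call therefore does not show a member to be unchanged. For the division by Malat1, cells were thinned to 1000 UMIs, which left out 262 Con and 228 mA1 cells, and a member needed at least 40 UMIs.

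The replicate numbers did not pair the libraries: deviations of same-numbered libraries correlated between -0.14 and 0.15 over the classes. Named members were those with most UMIs per family, the most and least uneven, the highest and lowest rho with Malat1, the smallest p per class, and 8 well-known members; members named beyond that rule were chosen after their values were seen, and 1 member is not reported here by name. The members and gene lists were chosen with earlier results of these data known. Counting intervals cover counting error only.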

Additional observations from a re-analysis of the deposited data

Results flagged for a closer look

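With the tumours as samples, Hnrnpa0 in B cell-like cells had 1 of the 4 mA1 tumours far above the others of its group, at 163.8 CPM, where the lowest mA1 tumour was at 120.4 CPM and the Con tumours lay between 168.8 and 188 CPM. Its gap to the next tumour, over the range of the group, passed Dixon's critical value. This was 1 of 18 groups of tumours tested for Hnrnpa0, and chance flags about 1 in 20.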

How the results depend on the processing

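The ratio of highest to lowest class was 4.06 without ribosomal protein, mitochondrial and Malat1 UMIs in the denominator, and 2.92 to 3.53 when 1 library was left out. With that denominator the rho of the summed level with Malat1 was 0.27 and the median member rho 0.16; with cells thinned to 1000 UMIs they were 0.24 and 0.0897. Leaving out 1 library gave a rho of 0.0441 to 0.16 and a median member rho of -0.0176 to 0.0647, below 0 without Con 1 (-0.0176), without mA1 1 (-0.0015) and without mA1 2 (-0.01). Members highest in tumour-like epithelial cells in all libraries numbered 1 (Prpf40b), 0 after thinning, and 1 to 3 with 1 library left out. Hnrnpa0 was the 1 member called in epithelial cells by DESeq2, with no low-count filter, without Con 1 and without Con 2, so leaving out 1 library gave 0 to 1; where a group was left with 1 library, that library was assumed to vary like the others. Genes called there numbered 17, and 77 by DESeq2, 28 with RLE scaling, 395 with no filter, 473 without Con 1, 278 without Con 2, 6 without mA1 1 and 2 without mA1 2. With the replicate block 0 members were called in epithelial and in other classes, the median member log2 fold change was -0.04, and 13 genes were called; a crossed replicate block, added after seeing the data, gave 0 members and 9 genes. The Malat1 log2 fold change was 0.0562 when only cells with both hashtags were left out as doublets, 0.0642 without sub-clusters led by AT2 markers (added after seeing the data), 0.34 without Con 1 and 0.32 without mA1 1, over a range of -0.51 to 0.34 with 1 library left out. Of 279 values of single genes under alternatives, 271 kept direction and side of the threshold. The cause of these differences was not tested. Depth limits weak members: 5 of 65 lay below 20 CPM, and the smallest epithelial library had 136 cells.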

Other observations

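Lists that hold no splicing gene gave few calls between groups over the 16 classes by edgeR. Atf3, a stress-induced transcription factor, was higher in mA1 in gamma-delta T-like cells, the 1 call in 160 class tests of dissociation and immediate early genes. Igkc, an immunoglobulin light chain, in NK-like cells and Hbb-bs, a beta globin, in tumour-like epithelial cells were lower in mA1. They were the 2 calls in 150 class tests of genes listed as marks of other cells. At an unadjusted p under 0.05 by edgeR lay 34 of the 160 tests and 27 of the 150, where 4.33% of all gene tests did. By count, these 2 lists thus held small p-values more often than genes at large. Their tests repeat the same few genes over classes of the same libraries, so they are not independent of each other. The counts are a description with no test. Cell cycle genes gave 0 calls in 146 class tests by edgeR, 13 of them with an unadjusted p under 0.05, and 0 by DESeq2. Nuclear long noncoding RNAs, Malat1 among them, gave 0 calls in 53 class tests by edgeR, 1 with an unadjusted p under 0.05, whereas DESeq2 called Xist in 7 classes and no other gene of that list; library Con 2 alone had Xist at a high level in epithelial cells.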
